A study of Mus musculus with 18 samples.

Results

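KO crypts collected 7 days after the first tamoxifen injection were compared with KO crypts collected at day 2. The members were chosen by group label, with earlier results of these data known. They are the 3 KO day 7 and 3 KO day 2 libraries, 6 of the 18 libraries of the series. Both groups carried Prmt1 alleles flanked by LoxP sites together with villin-driven CreERT2, a Cre recombinase that tamoxifen activates and that the villin promoter places in the intestinal epithelium, so that the presence of Cre is the same on both sides of the comparison. WT crypts with the floxed alleles and no Cre, 3 libraries at each of the same days, are given beside them. Mice were 8 to 12 weeks old and were given 2 mg tamoxifen per injection, daily from day 0 to day 4, so day 7 mice had completed the 5 injections and day 2 mice had not. Time since deletion, time after the last dose and number of doses cannot be told apart within KO. Each library was made from ribosomal RNA-depleted total RNA of purified small intestinal crypts of different mice, and the counts are fragments per gene.

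Prmt1 encodes the enzyme that makes most of the asymmetric dimethylarginine in cells, on histones and on RNA-binding proteins. Intestinal crypts hold Lgr5+ stem cells and Paneth cells at their base and dividing progenitors above them. The progenitors give rise to absorptive enterocytes and to secretory goblet, enteroendocrine (EEC) and tuft cells, and most of these cells are replaced within days.

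From day 2 to day 7 in KO crypts, 3418 of 21349 genes tested changed, 16% of all (the quasi-likelihood test of edgeR at an adjusted p of 0.05, with the Benjamini-Hochberg method, which is behind every adjusted p given here). There were 1540 genes that rose, 7.21%, and 1878 that fell, 8.80%. Changes of more than 2-fold were seen for 731 of the genes that rose and 792 of those that fell. The 3 libraries of 1 day lay wholly above or below those of the other for 31.8% of all genes tested (14.9% above and 16.9% below at day 7), called or not. Among the gene lists examined, 17 of 22 Paneth cell genes, 46 of 66 replication-dependent histone genes and 13 of 24 stem cell genes fell. In the other direction, 21 of 33 NRF2 target genes, 7 of 18 regenerative markers, 7 of 19 EEC transcription factors, 7 of 12 EEC hormone genes and 10 of 20 EEC granule genes rose. Over the same days 118 genes, 0.553%, changed in WT crypts, but leaving out 1 WT library moved that number to between 0 (WT day 2 replicate 1 or WT day 7 replicate 3 omitted) and 550 (WT day 2 replicate 2 omitted). The change itself differed between KO and WT for 934 genes, 4.37% of those tested (285 higher in KO, 1.33%, and 649 lower, 3.04%), and 792 of these were among the genes that changed in KO. Omitting KO day 7 replicate 1 lowered that count to 455, and omitting KO day 7 replicate 3 raised it to 1313.

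**Figure D1:**
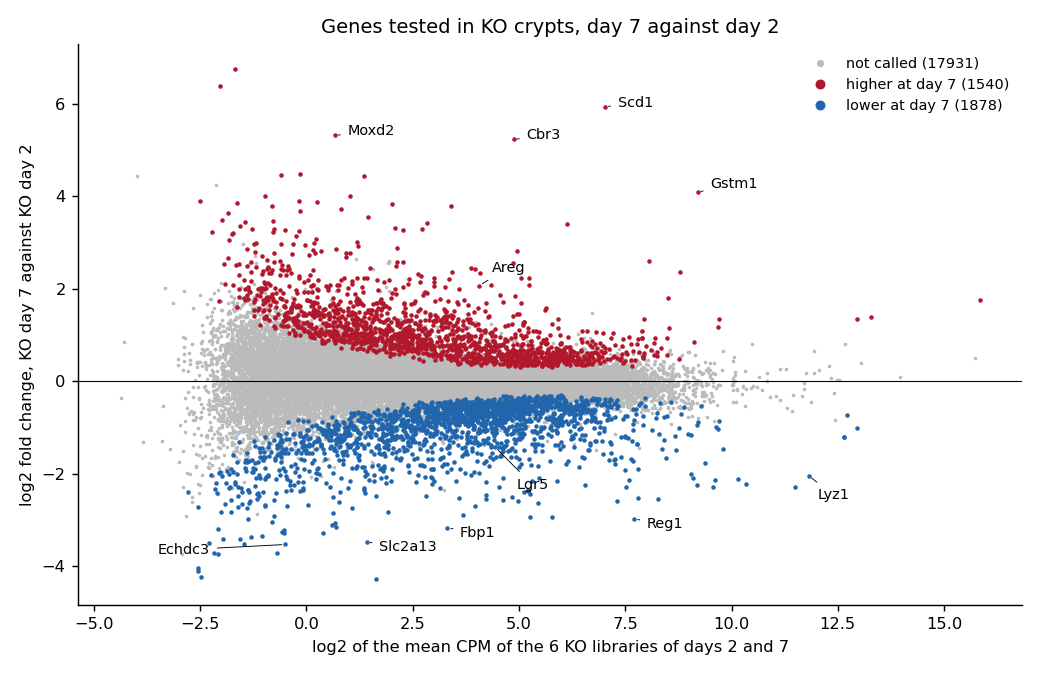
Log2 fold change of KO day 7 against KO day 2 (vertical axis) against the log2 of the mean CPM of the 6 KO libraries (horizontal axis), with 1 point per gene tested. The 1540 genes that rose are red, the 1878 that fell are blue, and genes not called are grey.

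The total count per library was 14885483 to 24181072 in KO day 2 and 22896441 to 29330630 in KO day 7. The 20 most abundant genes held 18.6% to 21.3% of the counts of KO day 2 libraries and 23.5% to 30.2% of those of KO day 7, without overlap. High Xist levels were found in 1 of 3 KO day 2 and 2 of 3 KO day 7 libraries, so the sexes were not balanced between the days, and 3672 genes were called with the Xist level as a covariate. KO day 7 replicate 1 had the lowest Paneth and stem cell levels and the highest NRF2 target levels of the 6 libraries. Without it 2396 genes were called, of which 2276 were among the 3418, all in the same direction. The omission of KO day 2 replicate 1 gave 2268 genes and that of KO day 2 replicate 3 gave 2189.

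Prmt1, the floxed gene, was already low at day 2. Its level was 15.8, 13.1 and 14.3 CPM (counts scaled by library size) in the 3 KO day 2 libraries and 13.6, 17.4 and 16.4 CPM in the 3 KO day 7 libraries. These overlapped, and the log2 fold change was 0.14 (SE 0.14, adjusted p = 0.565). The WT means were 26.6 CPM at day 2 and 23.8 CPM at day 7. Prmt1 was not called between the days, and all 6 KO libraries lay below the WT means. Esr1, part of whose human counterpart is included in CreERT2, was at 4.66, 4.91 and 6.47 CPM at day 2 and 4.40, 3.19 and 3.54 CPM at day 7 in KO, above the WT means of 0.258 and 0.236 CPM (KO day 7 against day 2, adjusted p = 0.139). Of the 8 protein arginine methyltransferase genes tested, Prmt1 among them, 1 fell and 1 rose, 12.5% each. Of all genes 8.80% fell and 7.21% rose, which is near these shares for a list of 8. Prmt3 fell by 0.57 on the log2 scale (SE 0.14, adjusted p = 0.00772) and Carm1 rose by 0.32 (SE 0.11, adjusted p = 0.0471). Without KO day 7 replicate 1 neither passed (adjusted p = 0.0575 for Prmt3 and 0.123 for Carm1), and Carm1 also failed without KO day 2 replicate 1, 2 or 3 (adjusted p = 0.144, 0.065 and 0.0905) and without KO day 7 replicate 2 (adjusted p = 0.0864). The Carm1 call was also lost with the replicate number as a block (adjusted p = 0.0605), by library size alone (0.117), without the filter on low counts (0.230) and in the fit to the 6 KO libraries alone (0.126).

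**Figure D2:**
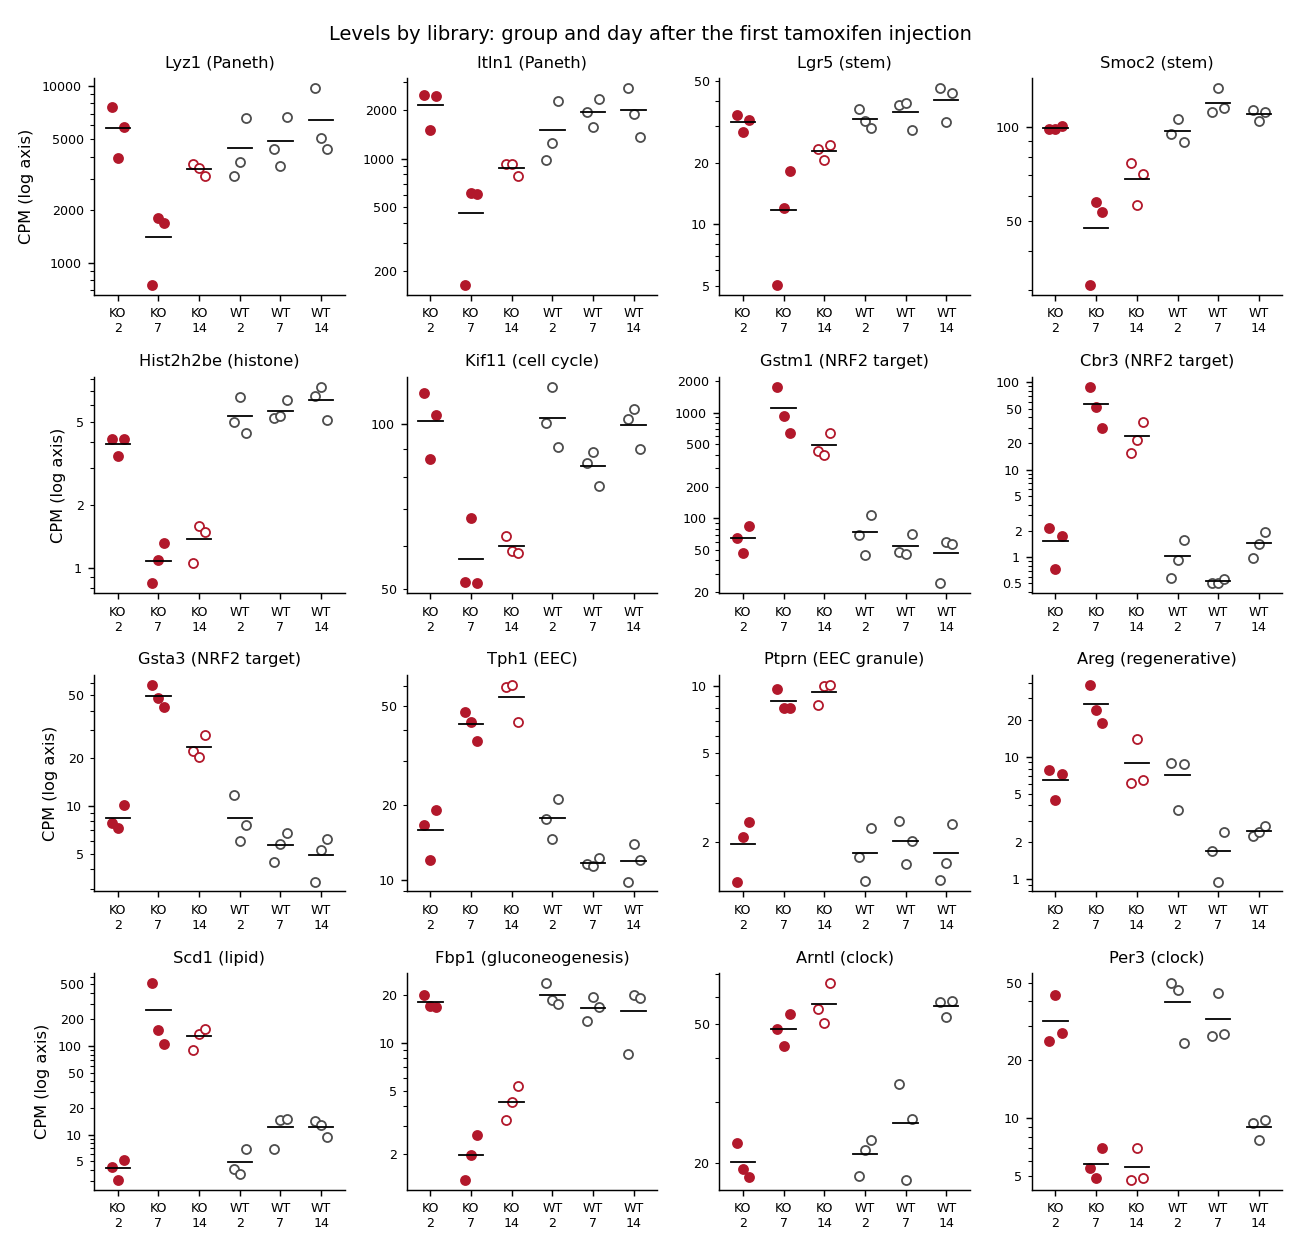
Levels in CPM (log axis) of 16 genes in each library, by group and day, with a line at the mean of each group of 3. Filled circles are the 6 KO libraries of days 2 and 7, and open circles are KO day 14 (red) and WT (grey). In each of the 16 genes the KO day 7 libraries lie apart from the KO day 2 libraries.

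Paneth cell genes had the lowest median change of the 30 gene lists examined. Paneth cells sit between the stem cells and secrete lysozyme and alpha-defensins against bacteria. Of 22 markers tested, 17 fell, 77.3%, and 0 rose, against 8.80% of all genes that fell, and the median log2 fold change was -2.10 against -0.01 over all genes. The summed level of the list was 11312 to 22649 CPM at day 2 and 1950 to 5343 CPM at day 7. In bulk crypts, fewer cells of a type and less RNA per cell cannot be told apart.

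Lyz1, which encodes the Paneth cell lysozyme, was at 7618, 3948 and 5846 CPM at day 2 and 751, 1796 and 1678 CPM at day 7. Every day 7 library was below every day 2 library, and the fall was 4.12-fold (log2 fold change -2.04, SE 0.39, adjusted p = 0.00144). The alpha-defensin Defa24 went from 6140.5, 2631 and 5565 CPM to 403, 1326 and 1233 CPM, 4.84-fold lower (adjusted p = 0.00358). All 9 alpha-defensins tested fell, with log2 fold changes from -2.60 to -2.01. They are near-identical copies, and as the counting dropped fragments that align in more than 1 place, single defensin values are uncertain. Itln1, an intelectin that binds microbial sugars, fell from 2498, 1516 and 2439.6 CPM to 165, 613 and 606 CPM (4.66-fold, adjusted p = 0.00167). Ang4, an antimicrobial ribonuclease, fell 5.76-fold (adjusted p = 0.00128), and Clps, which encodes the pancreatic lipase cofactor colipase, fell 5.69-fold (adjusted p = 0.00218). The 5 markers that were not called were Copz2, Kcnn4, Nupr1, Fgfrl1 and Dll3.

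In WT crypts the median of the Paneth list was 0.19 and 0 of the 22 genes were called with edgeR (2 at an unadjusted p under 0.05). The KO change was lower than the WT change for 9 of the 22, against 3.04% of all genes. For Lyz1 the difference of the log2 fold changes was -2.17 (SE 0.53, adjusted p = 0.0255, lost without replicate 1 of either KO day, WT day 2 replicate 1 or 2 or WT day 7 replicate 3) and for Itln1 -2.61 (SE 0.58, adjusted p = 0.0157), while for Defa24 it was -2.25 (adjusted p = 0.0603), which misses the threshold. With KO day 7 replicate 1 left out, 16 Paneth markers fell and the median was -1.76. Mptx1, a mucosal pentraxin that went from 0.732, 1.26 and 0.690 CPM to 0.0445, 0.175 and 0.175 CPM (adjusted p = 0.000743), is shown with its promoter because it is one of the 6 Paneth genes with a TCF motif there. TCF factors carry Wnt signals to their target genes. The 250 bases before its start (RefSeq, GRCm38.p6, chr1:174330268-174330517, + strand), in 5′ to 3′ order with the match in capitals, were as follows.
Mptx1: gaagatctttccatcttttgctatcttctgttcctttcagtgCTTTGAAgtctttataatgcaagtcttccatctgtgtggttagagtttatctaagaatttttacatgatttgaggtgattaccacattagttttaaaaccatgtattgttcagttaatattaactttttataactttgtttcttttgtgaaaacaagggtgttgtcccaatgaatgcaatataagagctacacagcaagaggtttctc
The letters CTTTGAA or CTTTGAT were searched on both strands in the 250 bases before the start. They were found for 6 of the 16 Paneth genes with a RefSeq promoter, all 6 of them among the 11 that fell, and for 8.63% of 27025 symbols with a promoter. Of the 6, 4 are alpha-defensins, which share sequence and do not count as separate cases. In the stem cell list 1 of 17 promoters held them.

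Of 24 stem cell and Wnt target genes tested, 13 fell, 54.2% against 8.80% of all genes, and 0 rose, with a median log2 fold change of -0.80 in KO and 0.11 in WT. Lgr5, the Wnt-amplifying receptor that marks the crypt base stem cell, was at 34.1, 28.2 and 32.4 CPM at day 2 and 5.07, 12.1 and 18.2 CPM at day 7. The groups did not overlap, and the lowest day 7 value belonged to replicate 1 (log2 fold change -1.42, SE 0.29, adjusted p = 0.00329). Smoc2, a secreted matrix protein of the stem cell zone, was the member with the smallest p and fell from 98.7, 99 and 101 CPM to 31.2, 57.5 and 53.5 CPM (2.10-fold, adjusted p = 0.000406). The day 2 values of Smoc2 lay within a few CPM of each other, while its day 7 values were spread more widely, with replicate 1 the lowest.

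Olfm4, a secreted glycoprotein of crypt base cells, fell 2.77-fold (adjusted p = 0.0017), and Ascl2, the transcription factor of the stem cell state, fell 2.35-fold (adjusted p = 0.00416). Nkd1, a Wnt feedback inhibitor, went from 3.59, 3.59 and 3.54 CPM to 0.712, 1.51 and 1.31 CPM (3.00-fold, adjusted p = 0.000756). Axin2, the other feedback inhibitor and a general Wnt target, was at 83.7, 102 and 99.1 CPM and 53.9, 76.7 and 113 CPM. These overlapped, and the fitted log2 fold change, -0.23 (SE 0.19), was not called (adjusted p = 0.446), although it was called lower once KO day 7 replicate 3 was left out (-0.52, adjusted p = 0.0389). Genes with wider expression in progenitors, Prom1 and Cdca7, fell 1.84-fold and 2.06-fold. The KO change was lower than the WT change for 9 of the 24 genes, against 3.04% of all genes, among them Lgr5 (difference -1.54, adjusted p = 0.0392), Smoc2 (-1.38, adjusted p = 0.00306) and Nkd1 (-1.93, adjusted p = 0.00653). The call of the Lgr5 difference was lost in 9 of the 12 omissions of 1 KO or WT library and held without KO day 7 replicate 1 or 3 or WT day 7 replicate 3, while those of Smoc2 and Nkd1 held in all 12. For Olfm4 the difference was -1.07 (adjusted p = 0.144). The omission of KO day 7 replicate 1 left 11 stem cell genes that fell.

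**Figure D3:**
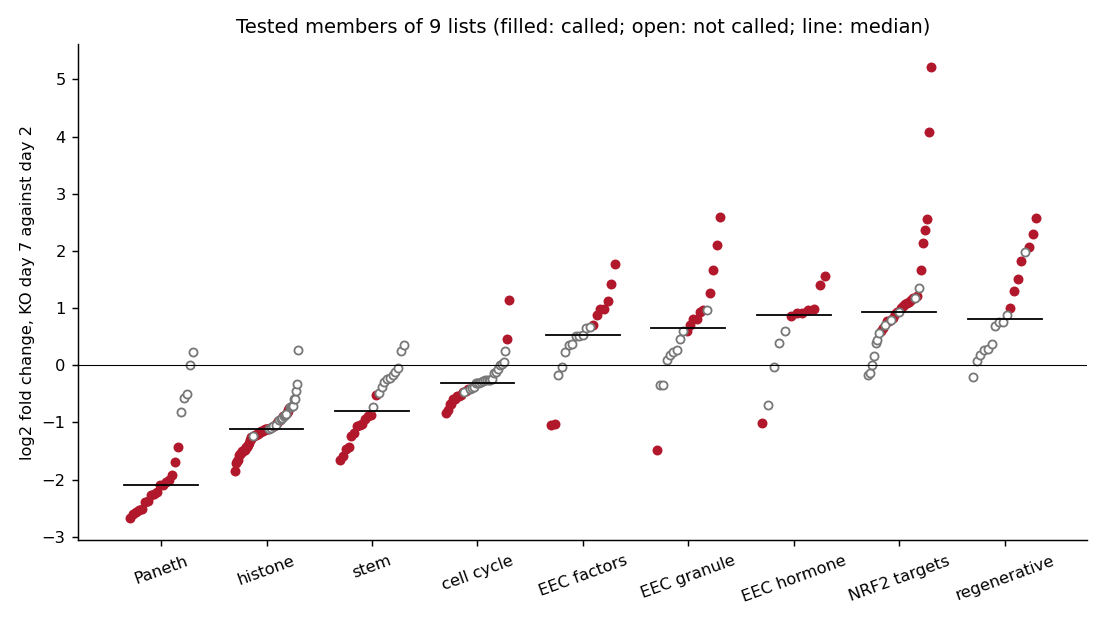
Log2 fold change of KO day 7 against KO day 2 for each tested member of 9 lists, ordered within a list, with a line at the median. Filled points passed the test and open points did not. The Paneth, histone and stem cell lists lie mostly below 0 and the NRF2 target list mostly above 0.

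Replication-dependent histone genes, the longest of the 30 lists, gave the largest number of decreases. These genes supply the histones that package DNA in S phase, and most of their mRNAs end in a stem-loop in place of a poly(A) tail, so they are measured in total RNA libraries such as these. Of 66 tested, 46 fell, 69.7%, against 8.80% of all genes and 77.3% of the Paneth list. None of the list rose, and the median log2 fold change was -1.12. The summed level of all 69 histone genes listed was 2922 to 5567 CPM at day 2 and 1287 to 2612 CPM at day 7, without overlap. Hist2h2be went from 4.13, 3.42 and 4.14 CPM to 0.845, 1.09 and 1.31 CPM (3.59-fold, adjusted p = 5.04e-05) and Hist4h4 from 62.5, 38.1 and 71.2 CPM to 17.8, 23.6 and 12.1 CPM (3.20-fold, adjusted p = 0.00102). Hist2h2ab fell 3.15-fold (adjusted p = 0.000119) and Hist2h2ac fell 2.37-fold (adjusted p = 0.00072). Exons of an opposite-strand gene cover 68.2% of the exon bases of Hist2h2ab and 27.1% of those of Hist2h2ac, and counting without strand does not separate them.

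In WT crypts the histone median was -0.32, and the change differed between KO and WT for 2 of the 66, Hist2h2be (difference -1.93, adjusted p = 0.00174) and Hist2h2ab (-1.47, adjusted p = 0.0129). The change was lower in KO for 3.04% of all genes, so 2 of 66 is near the background. When KO day 7 replicate 1 was left out there were 25 histone genes that fell, with a median of -1.05, and there were 22 when KO day 7 replicate 3 or KO day 2 replicate 3 was. A fit to the 6 KO libraries alone, which estimates the spread from fewer libraries, called 26 of them lower. The promoter of Hist2h2ab is shown as an example of the CCAAT boxes that most of these genes share (RefSeq, GRCm38.p6, chr3:96219635-96219884, + strand, 5′ to 3′, matches in capitals).
Hist2h2ab: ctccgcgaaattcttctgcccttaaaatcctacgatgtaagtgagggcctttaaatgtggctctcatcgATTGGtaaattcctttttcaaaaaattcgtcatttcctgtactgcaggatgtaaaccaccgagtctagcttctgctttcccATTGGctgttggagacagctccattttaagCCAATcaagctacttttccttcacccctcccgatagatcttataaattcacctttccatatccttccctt
The letters CCAAT, searched on both strands, were found in 48 of the 59 histone promoters that could be matched to RefSeq by symbol or synonym, and in 37.5% of all 27025 symbols. They were present in 35 of the 42 matched histone genes that fell.

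Cell cycle genes fell in part. Of 35 tested, 12 fell, 34.3% against 8.80% of all genes, and 2 rose, 5.71%, which is below the 7.21% of all genes. The median was -0.31 in KO and -0.14 in WT, and 0 differed between KO and WT by edgeR in the test of the difference (6 at an unadjusted p under 0.05). Kif11, the spindle motor, went from 114, 86.4 and 104 CPM to 51.6, 67.6 and 51.3 CPM (log2 fold change -0.83, SE 0.14, adjusted p = 0.000496), and Top2a, the topoisomerase of dividing cells, fell 1.72-fold (adjusted p = 0.00135). The proliferation marker Mki67 was at 599, 657 and 530.0 CPM and 448, 549 and 473 CPM, overlapping (log2 fold change -0.28, adjusted p = 0.266). E2f2, an E2F transcription factor of the G1 to S transition, went the other way, from 42.9, 33.4 and 35.9 CPM to 94.3, 84 and 70.2 CPM (2.22-fold, adjusted p = 0.000404). The number that fell varied with the library omitted, with 2 on omitting KO day 7 replicate 1 or KO day 2 replicate 3, 3 on omitting KO day 7 replicate 3, 4 on omitting KO day 2 replicate 1, 12 on omitting KO day 7 replicate 2 and 15 on omitting KO day 2 replicate 2. Over these omissions the median stayed between -0.44 and -0.25, and 3 fell in the fit to the 6 KO libraries alone. Of 24 p53 target genes tested, 0 were called with edgeR and 0 with DESeq2, and 4 had an unadjusted p under 0.05. Cdkn1a, the cyclin-dependent kinase inhibitor p21, was at 45.5, 44.1 and 57.8 CPM and 99.3, 74.3 and 59.4 CPM, without overlap (log2 fold change 0.66, adjusted p = 0.104). It was called higher in the fit to the 6 KO libraries alone (0.67, adjusted p = 0.0444), and without the filter on low counts 1 gene of the list was called lower.

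NRF2 target and glutathione genes had the highest median change of the 30 lists with all libraries, but not without KO day 2 replicate 3 (1.09, against 1.65 for the regenerative markers) or with the replicate number as a block (0.95 against 0.997). NRF2 is the transcription factor that, when oxidants or electrophiles release it from KEAP1, binds antioxidant response elements in genes for glutathione synthesis, glutathione transfer and NADPH supply. Of 33 tested, 21 rose, 63.6%, against 7.21% of all genes, and 0 fell. The median log2 fold change was 0.93 in KO and -0.51 in WT (-0.31 without WT day 2 replicate 3). The summed level of all 34 genes listed was 3471 to 4591 CPM at day 2 and 5591 to 10643 CPM at day 7. The change was higher in KO than in WT for 19 of the 33 tested, against 1.33% of all genes.

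The glutathione transferase Gstm1 rose from 65.1, 46.9 and 84.3 CPM at day 2 to 1757, 936 and 637 CPM at day 7. The lowest day 7 library was several times the highest day 2 library, and the rise was 16.9-fold (log2 fold change 4.08, SE 0.46, adjusted p = 3.67e-05). Cbr3, a carbonyl reductase, rose from 2.13, 0.742 and 1.73 CPM to 89.4, 52.6 and 29.8 CPM, 37.4-fold (SE of the log2 fold change 0.48, adjusted p = 6.44e-06). Gsta3, an alpha-class transferase, rose from 7.79, 7.25 and 10.1 CPM to 58.2, 48.4 and 42.1 CPM (5.89-fold, adjusted p = 2.8e-06), Gstm3 rose 5.15-fold (adjusted p = 0.000878) and Gsta2 rose 4.42-fold (adjusted p = 0.000525). In all of these the 3 day 7 libraries lay above the 3 day 2 libraries.

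Of the enzymes of glutathione and NADPH supply, Gclc, the catalytic subunit of the rate-limiting step of glutathione synthesis, rose from 53.4, 58.6 and 61.6 CPM to 175, 104 and 86.7 CPM (2.11-fold, adjusted p = 0.000916), and Pgd of the pentose phosphate pathway rose 2.13-fold (adjusted p = 0.000958). Nqo1, the quinone reductase, was at 40.9, 22.8 and 42.3 CPM and 102, 71.1 and 40.7 CPM and rose 2.01-fold, although 1 day 7 library lay within the day 2 range (adjusted p = 0.0255). It did not pass without KO day 7 replicate 1 or 2 or KO day 2 replicate 2 (adjusted p = 0.131, 0.0548 and 0.0812), without the filter on low counts (0.0893) or in the fit to the 6 KO libraries alone (0.0932). Hmox1, heme oxygenase, was at 0.200, 0.399 and 0.345 CPM and 0.934, 0.702 and 0.568 CPM (adjusted p = 0.374). Gsta1 and Gsta2, and the Gstm genes, are close paralogs whose shared fragments were not counted. The differences from the WT change were 4.52 for Gstm1 (SE 0.60, adjusted p = 0.000564), 6.19 for Cbr3 (SE 0.78, adjusted p = 0.000374) and 3.15 for Gsta3 (SE 0.34, adjusted p = 5.99e-05). There were 15 NRF2 targets that rose when KO day 7 replicate 1 was omitted, with a median of 0.71.

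The promoter of Gsta3 is shown because, of the transferases that rose most, it is the one with an antioxidant response element core, TGACNNNGC on either strand, in the 250 bases before its start (RefSeq, GRCm38.p6, chr1:21240335-21240584, + strand, 5′ to 3′, match in capitals).
Gsta3: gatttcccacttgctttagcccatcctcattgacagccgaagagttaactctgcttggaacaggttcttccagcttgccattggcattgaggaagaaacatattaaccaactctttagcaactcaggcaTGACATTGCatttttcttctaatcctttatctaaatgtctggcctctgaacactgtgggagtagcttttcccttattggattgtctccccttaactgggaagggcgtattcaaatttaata
The core was found in 9 of the 29 matched promoters of the list, in 5 of the 19 matched genes that rose, and in 11.5% of all 27025 symbols. It was not found in this window of Cbr3, Gstm1, Gstm3, Gsta2 or Pgd, which says only that these letters are absent there.

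**Figure D4:**
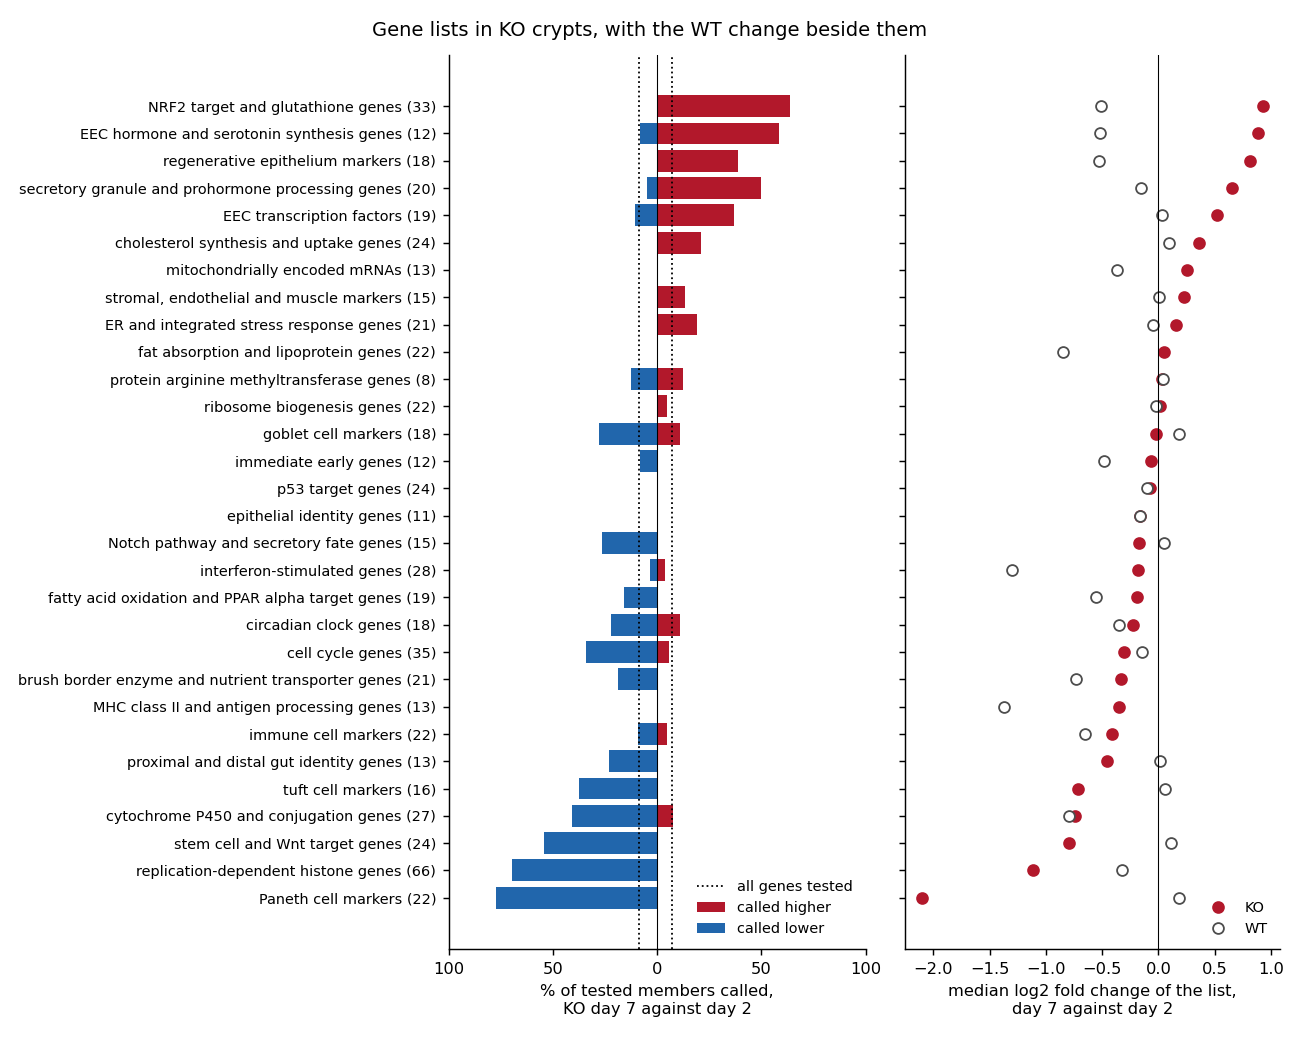
Left, share of the tested members of each of 30 lists (number tested in parentheses) that rose (red) or fell (blue) in KO crypts from day 2 to day 7, in percent, with dotted lines at the shares over all genes tested, 7.21% and 8.80%. Right, median log2 fold change of each list over the same days in KO (filled) and WT (open). The Paneth list has the lowest KO median, -2.10. The NRF2 list has the highest, 0.93, with all libraries, an order that changes without KO day 2 replicate 3.

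EEC genes were kept in 3 lists, and members of each rose. EECs release hormones and serotonin in response to food. Of 19 EEC transcription factors 7 rose, 36.8%, and 2 fell, 10.5%. Of 12 hormone and serotonin synthesis genes 7 rose, 58.3%, and 1 fell, 8.33%, and of 20 granule and prohormone processing genes 10 rose, 50%, and 1 fell, 5%. Of all genes 7.21% rose and 8.80% fell, so the shares of these lists that fell are near the background. Their medians were 0.52, 0.88 and 0.65 in KO and 0.03, -0.52 and -0.15 in WT, and the KO hormone median was 0.54 without KO day 7 replicate 1. With 1 WT library omitted the 3 WT medians were -0.047 to 0.098, -0.66 to -0.36 and -0.20 to -0.072. The summed levels at day 7 lay above those at day 2 for all 3 lists, 95.5 to 103 CPM against 78.9 to 79.5 CPM for the factors. EEC genes were a main subject of the study of these same libraries, so the choice of the lists is no independent evidence of their direction.

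Neurog3, the factor that commits progenitors to the EEC fate, was at 2.93, 2.85 and 4.10 CPM at day 2 and 5.25, 7.16 and 5.89 CPM at day 7 (1.84-fold, adjusted p = 0.0117), and the call was lost without KO day 2 replicate 1 (adjusted p = 0.0549) or KO day 7 replicate 2 (adjusted p = 0.0527). Its targets in the EEC cascade also rose, Neurod1 2.17-fold (adjusted p = 0.00131), Pax4 2.69-fold (adjusted p = 0.00206) and Insm1 1.97-fold (adjusted p = 0.00538). Fev, a factor of serotonin-producing enterochromaffin cells, went from 0.599, 0.342 and 0.431 CPM to 1.78, 1.26 and 1.62 CPM (3.39-fold, adjusted p = 0.00116). Foxa2 fell from 4.73, 5.08 and 5.35 CPM to 1.601, 2.32 and 3.54 CPM (2.04-fold, adjusted p = 0.00607) and Mnx1 fell 2.07-fold (adjusted p = 0.00674). Of the factors the difference from the WT change was called for Neurod1 (1.72, adjusted p = 0.00272), Foxa2 (-1.22, adjusted p = 0.0424) and Mnx1 (-1.41, adjusted p = 0.0252). The Neurod1 call held in all 12 omissions of 1 KO or WT library, that of Foxa2 was lost in 10 and that of Mnx1 in 5. For Neurog3 the difference was 0.76 (adjusted p = 0.215).

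Tph1, the rate-limiting enzyme of serotonin synthesis in enterochromaffin cells, rose from 16.6, 12 and 19 CPM to 47.1, 43 and 36.2 CPM (2.65-fold, SE of the log2 fold change 0.18, adjusted p = 5.19e-05). The day 7 libraries lay well above the day 2 libraries, and the change exceeded that of WT by 2.00 on the log2 scale (adjusted p = 0.00023). Among the peptide hormones Pyy rose 2.95-fold (adjusted p = 0.00825), Gcg, the GLP-1 precursor, 1.89-fold (adjusted p = 0.00381), Cck 1.88-fold (adjusted p = 0.00825, but 0.0575 without KO day 7 replicate 1) and Tac1, the substance P precursor, 1.81-fold (adjusted p = 0.00571). Ghrl, which encodes ghrelin, went from 10.3, 15.9 and 14.6 CPM to 6.54, 6.21 and 7.64 CPM and fell 2.01-fold (adjusted p = 0.00052). Gip was at 38.4, 63.6 and 61.5 CPM and 78.8, 73.7 and 62 CPM, overlapping (adjusted p = 0.166).

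Of the granule genes, Ptprn, a membrane protein of dense-core vesicles, rose from 1.33, 2.11 and 2.46 CPM to 9.69, 7.97 and 7.99 CPM (4.27-fold, adjusted p = 2.78e-05), and the granins Chga and Chgb rose 1.75-fold and 1.90-fold (adjusted p = 0.00409 and 0.00327). Vgf, another granin family precursor, went from 0.200, 0.171 and 0.173 CPM to 1.02, 1.05 and 1.27 CPM (adjusted p = 0.000643). Without KO day 7 replicate 1 there were 8 factors, 4 hormone genes and 9 granule genes that rose.

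Goblet and tuft cell genes were examined beside the EEC genes. Of 18 goblet cell markers 2 rose, 11.1%, and 5 fell, 27.8%, against 7.21% and 8.80% of all genes. With 1 library omitted the number that rose was 1 (KO day 2 replicate 1) to 3 (KO day 2 replicate 2), and the median of -0.02 moved between -0.13 (KO day 7 replicate 1) and 0.064 (KO day 7 replicate 3), so it has no fixed direction. Muc2, the secreted mucin, was at 3144, 3521 and 3082 CPM and 4369.6, 3145 and 3508 CPM (adjusted p = 0.568), Spink4, a protease inhibitor, fell 2.21-fold (adjusted p = 0.000646) and Creb3l1, a secretory pathway transcription factor, rose 1.92-fold (adjusted p = 0.00105). Of 16 tuft cell markers 6 fell, 37.5%, and 0 rose, with a median of -0.72 in KO and 0.06 in WT (-0.030 to 0.12 with 1 WT library omitted). With edgeR 0 of them were called once KO day 7 replicate 1 or KO day 2 replicate 3 was omitted, and 1 once KO day 2 replicate 2 was. In the fit to the 6 KO libraries alone 0 were called, 3 were without the filter on low counts, and the median was -0.42 without KO day 7 replicate 1. Dclk1, the usual tuft cell marker, was at 20.8, 26.6 and 18.9 CPM and 5.78, 15.5 and 17 CPM and fell (log2 fold change -0.79, adjusted p = 0.0495), with replicate 1 far below the other day 7 libraries. Its adjusted p was 0.103 without that library and 0.0893, 0.146 and 0.0638 without KO day 2 replicate 1, 2 and 3. In all, the Dclk1 call was lost in 12 of the 16 alternatives (adjusted p of 0.0531 to 0.187), among them the size factors of DESeq2, library size alone, both filters, the replicate block, the Xist covariate and the fit to the 6 KO libraries alone. By edgeR 0 of the tuft genes differed between KO and WT (3 at an unadjusted p under 0.05). Of 15 Notch pathway and secretory fate genes 4 fell, 26.7%, and 0 rose. Dtx4, a ubiquitin ligase of the Notch pathway, fell from 38.1, 34.9 and 35.8 CPM to 11.6, 15.2 and 14.2 CPM (2.65-fold, adjusted p = 3.04e-06), and the Notch feedback regulator Nrarp fell 2.42-fold (adjusted p = 0.000425), with 79.4% of its exon bases shared with an opposite-strand gene. Atoh1, the factor of the secretory fate, was at 18.5, 22.5 and 25.1 CPM and 23.7, 23.6 and 25.2 CPM (log2 fold change 0.13, SE 0.16, adjusted p = 0.629), and Hes1, the Notch target that represses it, at 22.8, 20.8 and 26.8 CPM and 20.4, 23.2 and 18.7 CPM (adjusted p = 0.468).

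Regenerative epithelium markers, genes of the fetal-like state that follows crypt damage, rose in part. Of 18 tested, 7 rose, 38.9%, and 0 fell, with a median of 0.82 in KO and -0.53 in WT, and without KO day 2 replicate 3 the KO median was 1.65. The EGF family ligand Areg rose from 7.79, 4.39 and 7.16 CPM to 38.4, 23.9 and 18.7 CPM (4.18-fold, adjusted p = 0.00173), while its WT means were 7.09 and 1.69 CPM, so that the changes differed by 4.10 on the log2 scale (adjusted p = 0.000743). Ly6a, also called Sca-1, was at 1.07, 1.43 and 1.596 CPM and 14.9, 3.83 and 5.98 CPM (log2 fold change 2.57, adjusted p = 0.00647), with replicate 1 the highest and a log2 fold change of 1.84 without it. The ligand Ereg rose 2.83-fold (adjusted p = 0.027, but 0.0904, 0.0718 and 0.0814 without KO day 7 replicate 1, KO day 2 replicate 1 and KO day 2 replicate 2, and 0.0837 without the filter on low counts) and the annexin Anxa3 2.46-fold (adjusted p = 0.00373). Clu, the marker of revival stem cells, was at 1.33, 3.31 and 5.09 CPM and 6.23, 4.39 and 5.37 CPM (adjusted p = 0.5). The list had 4 calls when KO day 7 replicate 1 or KO day 2 replicate 2 was omitted.

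Genes of drug metabolism fell in part. Of 27 cytochrome P450 and conjugation genes 11 fell, 40.7% against 8.80% of all genes, and 2 rose, 7.41% against 7.21%, with medians of -0.74 in KO and -0.80 in WT. Leaving out KO day 2 replicate 3 reduced the 11 to 4, leaving out KO day 7 replicate 1 or 2 to 6, and leaving out KO day 7 replicate 3 to 7. The 2 that rose became 1 without KO day 2 replicate 1 or 3 or KO day 7 replicate 1. Cyp2c66 fell from 69.5, 44.6 and 90.4 CPM to 4.85, 10.6 and 11.1 CPM (7.69-fold, adjusted p = 0.00104) and the carboxylesterase Ces2a fell 3.31-fold (adjusted p = 0.000439). Cyp3a11, the main intestinal drug oxidase, fell 2.80-fold (adjusted p = 0.016, but 0.0727 without KO day 7 replicate 1 and 0.0777 without KO day 2 replicate 3 and 0.0542 without the filter on low counts), and its WT means were 759 and 271 CPM, so the difference of the log2 fold changes was close to 0 (SE 0.54). The difference was called for Ces2a (-1.48, adjusted p = 0.0351), but the call was lost in 8 of the 12 omissions of 1 KO or WT library. Of 21 brush border genes 4 fell, 19% against 8.80% of all genes, and 1 did on omission of KO day 2 replicate 3 or KO day 7 replicate 1 or 3 (2 on omission of replicate 2 of either day). The brush border median was -0.33 in KO and -0.73 in WT (-0.45 without WT day 2 replicate 3). In WT 0 of the 21 were called with edgeR and 8 with DESeq2, and 13 had an unadjusted p under 0.05, against 8 in KO. By edgeR 0 of the 21 differed between KO and WT. Lct, lactase, went from 1041, 1313 and 1439.7 CPM to 237, 279 and 346 CPM (4.40-fold, adjusted p = 0.00672), while Sis, sucrase-isomaltase, was at 3983, 4314 and 3468 CPM and 6212, 4065 and 3555 CPM (adjusted p = 0.645).

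Of 22 fat absorption genes 0 were called with edgeR and 1 with DESeq2, 1 had an unadjusted p under 0.05, and their median was 0.05 in KO and -0.85 in WT. The fit to the 6 KO libraries alone called 3 of them lower, and library size alone, no filter on low counts and the Xist covariate called 1 lower each. The KO median turned to -0.19 without KO day 7 replicate 1 and was 0.23 without KO day 7 replicate 3, and the WT median was -0.51 without WT day 2 replicate 3. Of 19 fatty acid oxidation genes 3 fell, 15.8% against 8.80% of all genes. Their median was -0.19 in KO (-0.33 to -0.039 with 1 KO library omitted) and -0.56 in WT. In WT 0 were called with edgeR and 4 with DESeq2, and 11 had an unadjusted p under 0.05. Cpt2, the inner mitochondrial carnitine palmitoyltransferase, fell from 77.4, 79.1 and 89.3 CPM to 30.2, 24.4 and 20.1 CPM (3.29-fold, adjusted p = 9.91e-06), and its difference from the WT change was -1.11 (adjusted p = 0.0194), not called without WT day 2 replicate 1 or WT day 7 replicate 2. Of 24 cholesterol synthesis and uptake genes 5 rose, 20.8% against 7.21% of all genes, and 0 fell, and omitting 1 library gave 1 (KO day 2 or day 7 replicate 1), 2 (KO day 2 replicate 3 or KO day 7 replicate 2) or 3 (KO day 2 replicate 2). Of 21 endoplasmic reticulum and integrated stress genes 4 rose, 19%, among them Atf4, the stress transcription factor, 1.35-fold (adjusted p = 0.0251, but 0.117, 0.0637, 0.0753 and 0.0625 without KO day 7 replicate 1 or 2 or KO day 2 replicate 1 or 2, 0.074 without the filter on low counts, 0.1001 in the fit to the 6 KO libraries alone and 0.05005 by library size alone) and Chac1, a glutathione-degrading enzyme induced by ATF4, 4.44-fold (adjusted p = 0.00157), and 2 genes of the list rose without KO day 2 replicate 1. Of 22 ribosome biogenesis genes 1 rose, Nop2, 4.55%, which is below the share of all genes. Of 13 proximal and distal gut identity genes 3 fell, 23.1%, among them Fgf15, the ileal hormone that curbs bile acid synthesis (4.06-fold, adjusted p = 0.00459).

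The largest changes of single genes were taken without regard to the lists. Scd1, the stearoyl-CoA desaturase that makes monounsaturated fatty acids (chromosome 19, 44394455 to 44407879 in mm10), had the largest increase among the genes named by the rule. It rose from 4.26, 3.08 and 5.13 CPM to 509, 153 and 105 CPM, 61-fold (log2 fold change 5.93, SE 0.61, adjusted p = 3.29e-05), and 31.2-fold without KO day 7 replicate 1, its highest library. The difference from the WT change was 4.63 (adjusted p = 0.00456). The WT means were 4.88 and 12.2 CPM. Slc7a3, a cationic amino acid transporter, rose from 0.333, 0.228 and 0.129 CPM to 5.74, 3.86 and 4.98 CPM (adjusted p = 7.02e-06) and Stc2, the secreted glycoprotein stanniocalcin 2, from 0.266, 0.171 and 0.259 CPM to 5.87, 2.11 and 3.54 CPM (adjusted p = 4.15e-05). Cbr3 and Gstm1 are also among the 10 largest increases. The other 5 had at most 3 counts in every KO day 2 library, so no fold is given. Moxd2, a copper monooxygenase homolog, had 1, 2 and 1 counts at day 2 and 112, 66 and 46 at day 7, and Fut7, a fucosyltransferase, had 1, 3 and 3 and 68, 37 and 17 counts. Ccdc42 and Nutm1, known from the testis, and Olfr558, an olfactory receptor, had 88, 22 and 11, 38, 38 and 19 and 32, 28 and 18 counts at day 7.

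Fbp1, the fructose bisphosphatase of gluconeogenesis, fell from 19.97, 17 and 16.8 CPM to 1.38, 1.97 and 2.62 CPM, 8.98-fold (SE of the log2 fold change 0.29, adjusted p = 2.33e-06), and the WT means were 19.9 and 16.6 CPM. Slc2a13, a proton-coupled inositol transporter, fell from 6.12, 3.25 and 5.31 CPM to 0.489, 0.386 and 0.437 CPM (11.1-fold, adjusted p = 2.65e-06) and Reg1, a lectin of the regenerating family, from 378, 333 and 404 CPM to 13.7, 69.6 and 58.4 CPM (7.86-fold, adjusted p = 0.00166). The day 7 libraries were below the day 2 libraries in each. The other 7 of the 10 largest decreases were at lower levels. They were Echdc3, an enoyl-CoA hydratase homolog (1.26, 1.20 and 1.47 CPM to 0.0889, 0.0702 and 0.175 CPM), the nuclear receptor Nr2e3 (3.00, 2.97 and 2.76 CPM to 0.133, 0.386 and 0.437 CPM), Lyplal1, Scml2, Cyp2e1, Hlf and the microRNA gene Mir6969.

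**Figure D5:**
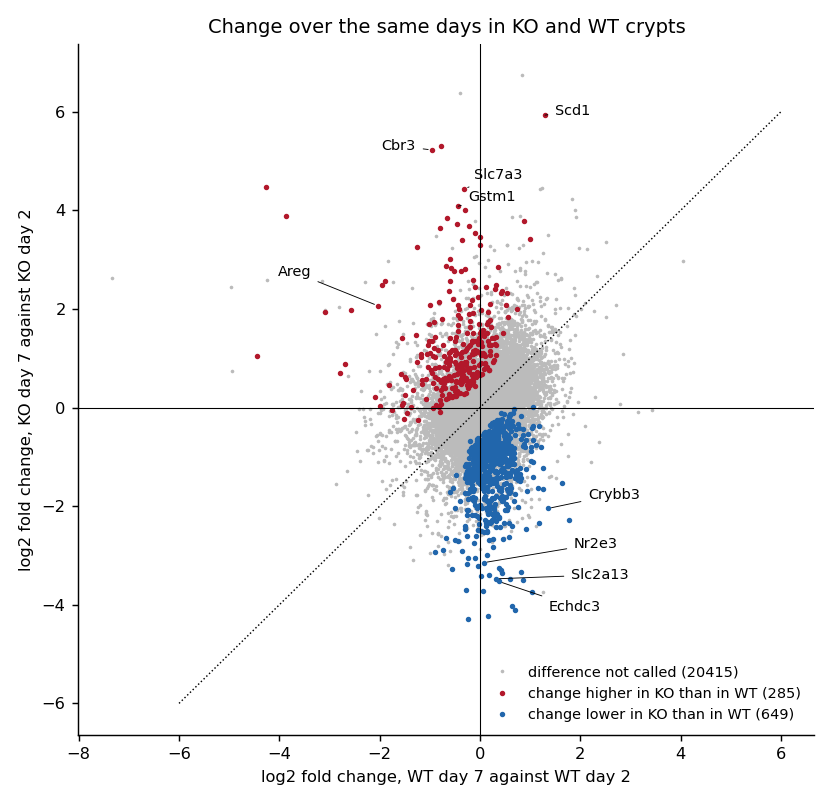
Log2 fold change of day 7 against day 2 in KO crypts (vertical axis) against that in WT crypts (horizontal axis), with 1 point per gene tested and a dotted line of equal change. The change was higher in KO than in WT for 285 genes (red) and lower for 649 genes (blue).

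Of the 1540 genes that rose in KO, 211 passed the test of a difference from the WT change, and of the 1878 that fell, 581 did. The WT median of the genes that rose in KO was 0.31, against 0.97 in KO, and that of the genes that fell was -0.10, against -0.87 in KO. Of the genes called in KO, 39 were also called in WT in the same direction and 3 in the opposite direction. Across all tested genes the Pearson correlation of the KO and WT changes was 0.237, and genes are not independent replicates. Most genes called in KO are therefore not shown to change differently from WT. The largest fitted differences were those of Ccdc42, Cbr3, Moxd2, Slc7a3 and Scd1 on the side higher in KO and those of Echdc3, Slc2a13, Scml2, Crybb3 and Nr2e3 on the side lower in KO. The place of Ccdc42 is not determined, as it had at most 2 counts in each KO day 2 library and 0 in each WT day 7 library (SE of the difference 2.08). Crybb3, a crystallin, was at 0.732, 1.88 and 0.863 CPM and 0.267, 0.105 and 0.480 CPM in KO (log2 fold change -2.05, adjusted p = 0.0156, -2.63 without KO day 7 replicate 3, and adjusted p = 0.0854 and 0.0765 without KO day 2 replicate 2 and KO day 7 replicate 2) with a WT log2 fold change of 1.35.

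Interferon-stimulated and antigen presentation genes had lower medians in WT than in KO. Of 28 interferon-stimulated genes 1 rose (0 without KO day 2 replicate 1 or 3 or KO day 7 replicate 1) and 1 fell in KO, 3.57% each way and below the 7.21% and 8.80% of all genes. The KO median was -0.18, and between -0.34 (without KO day 2 replicate 3) and -0.060 (without KO day 7 replicate 2) with 1 library omitted. In WT 6 were called (21 with DESeq2, and 0 without WT day 2 replicate 1 or WT day 7 replicate 3) and the median was -1.30 (-1.55 to -1.03 with 1 WT library omitted), and the change was higher in KO for 4, against 1.33% of all genes. Of 13 antigen presentation genes 0 were called in KO with edgeR and 2 with DESeq2 (5 at an unadjusted p under 0.05), 2 were called in WT (7 with DESeq2, and 0 without replicate 1 or 3 of either WT day), the medians were -0.35 in KO and -1.37 in WT, and the change was higher in KO for 3, against the same 1.33%. In KO edgeR called 2 of these 13 higher without KO day 7 replicate 3 and 1 lower without KO day 7 replicate 1. It called 1 lower by library size alone, without the filter on low counts and with the Xist covariate, and 1 higher in the fit to the 6 KO libraries alone. The KO median of these 13 moved to -0.85 without KO day 7 replicate 1, -0.0015 without KO day 7 replicate 2, -0.059 without KO day 7 replicate 3 and -0.19 without KO day 2 replicate 2. Cd74, the invariant chain, was at 495, 109.6 and 164 CPM in the KO day 7 libraries, with replicate 1 far above the other two.

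Of 18 circadian clock genes tested 2 rose, 11.1%, and 4 fell, 22.2%, against 7.21% and 8.80% of all genes. Arntl, which encodes the core activator BMAL1, rose from 22.9, 19.2 and 18.3 CPM to 48.6, 43.2 and 53.4 CPM (2.41-fold, adjusted p = 0.000105), and Npas2, a paralog of its partner CLOCK, rose 1.73-fold (adjusted p = 0.00412). Per3, a repressor of the clock, fell from 25, 43 and 27.6 CPM to 5.51, 4.91 and 6.99 CPM (5.50-fold, adjusted p = 3.12e-05) and the output factor Dbp fell 3.31-fold (adjusted p = 0.00619). The difference from the WT change was called for Arntl (0.96, adjusted p = 0.0326) and Per3 (-2.16, adjusted p = 0.00423). The Per3 call held in all 12 omissions of 1 KO or WT library, while that of Arntl was lost in 7. In WT crypts of day 14 the means were 56.4 CPM for Arntl, 8.99 CPM for Per3 and 3.05 CPM for Dbp, against 48.4, 5.80 and 7.50 CPM in KO at day 7. WT mice of another day thus had such levels as well, and the part of collection time in these changes was not tested.

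Markers of other cells were checked beside these lists. The summed level of 22 immune cell markers was 293 to 324 CPM at day 2 and 142 to 235 CPM at day 7, without overlap, and 0 of the 22 were at 0 in all 6 libraries. Of the 22, 1 was called higher, 4.55%, and 2 lower, 9.09%, against 7.21% and 8.80% of all genes. The call of Cd68, a macrophage protein (log2 fold change 1.10, adjusted p = 0.0269), was lost without KO day 2 replicate 3 or KO day 7 replicate 3 and by library size alone (adjusted p = 0.0534), and those of Gzma and Cd3g of intraepithelial lymphocytes (-1.14 and -0.999, adjusted p = 0.0149 and 0.0315) were both lost without KO day 7 replicate 1 or 3, with 0 of the 22 called lower in the first case and 2 others in the second. The Cd3g call was also lost without KO day 2 replicate 2 (adjusted p = 0.0838) or 3 (0.0727). The pan-leukocyte gene Ptprc was at 44.1, 42.5 and 37.7 CPM and 19.5, 21.8 and 51.9 CPM. The 16 stromal, endothelial and muscle markers listed summed to 25 to 107 CPM at day 2 and 37.0 to 92.5 CPM at day 7. Of the 15 tested, 2 were higher, 13.3% against 7.21% of all genes (1 without KO day 2 replicate 1 or 3 or KO day 7 replicate 1), and 0 were lower. Of 11 epithelial identity genes 0 were called with edgeR and 0 with DESeq2 (3 at an unadjusted p under 0.05). Library size alone, the Xist covariate and the omission of KO day 2 replicate 2 called 1 of the 11 lower each. Vil1, whose promoter drives CreERT2, was at 1205, 1593 and 1629 CPM and 1515, 1266 and 1211 CPM (adjusted p = 0.706). The 13 mitochondrially encoded mRNAs had 0 calls with edgeR and 1 with DESeq2 (2 at an unadjusted p under 0.05), and sums of 24762 to 27692 CPM at day 2 and 28683 to 32217 CPM at day 7. Of 12 immediate early genes, which handling can induce, 1 fell, Jun, 8.33% against 8.80% of all genes, and 0 did without KO day 2 replicate 2 or 3 or KO day 7 replicate 1. The part of these shifts in the results above was not tested.

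Between KO day 7 and KO day 14, 10 genes, 0.0468%, changed (0 by edgeR without KO day 7 replicate 1 or KO day 14 replicate 2, and 123 without KO day 7 replicate 3), and 1978 had an unadjusted p under 0.05. This comparison shares the KO day 7 libraries with the main one, so only levels are set side by side. The KO day 14 means were 3398 CPM for Lyz1, 22.7 CPM for Lgr5, 491 CPM for Gstm1 and 24.2 CPM for Cbr3, each between the KO means of days 2 and 7. For Tph1 (54.3 CPM) and Ptprn (9.46 CPM) they were above the day 7 means of 42.1 and 8.55 CPM. For Areg the mean was 8.82 CPM against 6.45 CPM at day 2 and 27 CPM at day 7.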

How the data were processed

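Total RNA of small intestinal crypts was sequenced after ribosomal RNA depletion as 100-base read pairs. The authors aligned reads to mm10 with STAR 2.7.3 and counted fragments per gene with featureCounts 1.6.4 (HTSeq is also named, its version not given in the sources used here), and the deposited table holds raw counts of 55335 genes in 18 libraries. Per the file header, fragments over several genes were counted for each, without strand, and those with several alignments for none. The table header names GENCODE release 23 and the study's methods release 26. Columns of per-sample values left unused numbered 0. The 20 genes that the study lists as differing by sex were left out before testing. The members and all gene lists were chosen with earlier results of these data known.

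Counts were tested with edgeR 4.0.16 (R 4.3.3, limma 3.58.1; TMM, filterByExpr, robust quasi-likelihood fit) with 1 mean for each of the 6 groups, all 18 libraries sharing the estimate of spread, and 21349 genes passed the filter. P-values were Benjamini-Hochberg adjusted over all of them, with 0.05 as the threshold. CPM values use TMM-scaled library sizes. Replicates are separate samples of 1 group, and p-values measure the spread between them. Named genes are Prmt1, Esr1, preset key genes of each list, up to 4 further called members per list by smallest p, the 10 largest increases and decreases without overlap at 1 CPM or more, and the 5 largest differences from WT in each direction. Library totals of 12844642 to 31493484 counts set the precision. Alternatives were DESeq2 1.42.0, other scalings and filters, Xist level, a replicate block, fewer libraries in the fit, and leaving out each library. The edgeR fit was tested on simulated counts. Promoter letters came from the RefSeq table of GRCm38.p6. Python 3.11.15, pandas 2.3.3, numpy 2.4.6 and matplotlib 3.10.9 were used for tables and plots. Values of some genes are not reported here.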

Additional observations from a re-analysis of the deposited data

Results flagged for a closer look

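The change from day 2 to day 7 differed between KO and WT for 934 genes by edgeR's quasi-likelihood test of the difference (adjusted p under 0.05), and those of them whose own values or ranks are described above are given here as the KO log2 fold change minus the WT log2 fold change. Among Paneth cell genes the differences were -2.17 for Lyz1, -2.61 for Itln1, -2.60 for Ang4, -2.53 for Clps and -2.94 for Mptx1. For stem cell genes the values were -1.54 for Lgr5, -1.38 for Smoc2, -1.93 for Nkd1, -1.13 for Prom1 and -0.96 for Cdca7. The histone genes Hist2h2be and Hist2h2ab differed by -1.93 and -1.47, the Notch pathway genes Dtx4 and Nrarp by -1.33 and -1.06, and Spink4 of goblet cells by -1.42.

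NRF2 targets differed by 6.19 for Cbr3, 4.52 for Gstm1, 3.15 for Gsta3, 2.98 for Gstm3, 2.96 for Gsta2, 1.61 for Nqo1, 1.47 for Gclc and 1.25 for Pgd. EEC genes differed by 2.72 for Vgf, 2.00 for Pyy, 2.00 for Tph1, 1.90 for Ptprn, 1.72 for Neurod1, 1.30 for Cck, 1.23 for Chgb, 1.20 for Gcg, 1.10 for Gip, 1.01 for Chga, -1.22 for Foxa2 and -1.41 for Mnx1. The regenerative markers Ly6a and Areg differed by 4.46 and 4.10. Of the remaining genes, higher values in KO were found for Ccdc42 (8.73), Moxd2 (6.10), Slc7a3 (4.75), Scd1 (4.63), Fut7 (3.90) and Arntl (0.96). Lower values in KO were found for Echdc3 (-3.90), Slc2a13 (-3.79), Scml2 (-3.63), Crybb3 (-3.40), Nr2e3 (-3.22), Cyp2e1 (-3.16), Mir6969 (-2.94), Fbp1 (-2.90), Lyplal1 (-2.82), Fgf15 (-2.23), Per3 (-2.16), Ces2a (-1.48), Cpt2 (-1.11) and Prmt3 (-0.72). Values for Ccdc42, Moxd2 and Fut7 rest on at most 3 counts per KO day 2 library and are fitted values, not bounds. Ccdc42 had 0 counts in all 3 WT day 7 libraries as well (fitted WT log2 fold change -4.26, SE 1.94), so its difference depends on the prior count. When each of the 12 KO and WT libraries of days 2 and 7 was left out in turn, 32 of these 57 differences kept their call every time. It was lost in 10 of the 12 omissions for Foxa2, in 9 for Lgr5, Nqo1 and Prmt3, in 8 for Ces2a, Clps, Fgf15, Nrarp and Pyy, in 7 for Arntl, Cdca7 and Chga and in 5 for Cck, Gip, Lyz1 and Mnx1. The losses numbered 4 for Ang4, Fut7 and Gcg, 3 for Vgf, 2 for Ccdc42, Cpt2 and Mir6969 and 1 for Cyp2e1 and Moxd2.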

How the results depend on the processing

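The count of genes changed in KO kept within 1.5 times of 3418 under all alternatives run except the omission of KO day 2 replicate 1 or 3, and no gene called in both was of opposite sign. Leave-one-out counts were 2189 to 3591, with 898 to 1748 higher and 1244 to 1843 lower, and a fit on the libraries of the compared groups alone gave 1018 higher. The WT count of 118 depended on the setting, with 1511 genes by DESeq2 (678 higher, 833 lower), 521 by library size alone (433 higher), 288 without the 20 most abundant genes (181 higher, 107 lower), 1012 without a filter (419 higher, 593 lower), 494 at a mean count of at least 50 (273 higher, 221 lower), 1189 with Xist as covariate (541 higher, 648 lower) and 606 with the compared groups alone (262 higher, 344 lower). Its leave-one-out range was 0 to 550, 0 to 125 higher and 0 to 425 lower. The 934 differences from WT became 1402 by DESeq2 (515 higher), and by library size alone 181 were higher and 1126 lower. Leave-one-out counts were 455 to 1313, with 113 to 494 higher and 342 to 819 lower. The 10 genes of KO day 14 against day 7 became 222 by DESeq2 (156 higher, 66 lower), 5 by library size alone (1 higher), 17 without the 20 most abundant genes (9 higher), 197 without a filter (124 higher, 73 lower), 17 at a mean count of at least 50 (11 higher), 3 with Xist as covariate (0 lower) and 0 with the compared groups alone (0 higher, 0 lower). Its leave-one-out range was 0 to 123, 0 to 76 higher and 0 to 47 lower. The cause of these shifts was not tested.

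Same-numbered KO libraries of days 2 and 7 did not deviate together (correlations of -0.02, -0.16 and -0.22), so the numbers do not pair them across days. The study describes littermate controls of the same age and sex at each day. Within each day Xist was high in the same replicate numbers of KO and WT. The labels name no pairs, and the fit did not match KO and WT mice within a day. With the replicate block 3220 genes changed in KO and 852 differed from WT, while 19 changed in WT (2 higher, 17 lower) and 5 between KO day 14 and day 7 (2 lower). Among single genes, 2 that were not called with all libraries turned direction when KO day 7 replicate 1 was left out. Leaving out each library in turn gave log2 fold changes of -0.52 to 0.0083 for Axin2 and -0.027 to 0.41 for Sis. Of the 57 named differences from WT, leaving out 1 WT library cost between 9 and 18 their call and leaving out 1 KO library between 0 (KO day 7 replicate 3) and 18 (KO day 7 replicate 1), and 32 held in all 12 omissions. Depth limits the genes with a few counts at day 2, such as Moxd2 and Ccdc42.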
